A study of Mus musculus with 6 samples.

Results

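The baseline described here was the transcriptome of naive CD4 T cells from the spleen of *Ikzf3* +/+ mice, taken from the 2 libraries of that genotype among the 6 T cell libraries analysed. The cells were TCRβ+CD4+CD44-CD127+ and FACS purified from C57BL/6 mice, and poly(A) RNA was sequenced. The study set these cells against the same sort from mice carrying the N159S allele of *Ikzf3*, a missense change in the zinc finger protein Aiolos, on 1 chromosome (*Ikzf3* +/N159S, 2 libraries) or on both (*Ikzf3* N159S/N159S, 2 libraries). The labels gave no age, and did not say how many mice stood behind a library, so the spread between replicates may be technical in part. Both *Ikzf3* +/N159S libraries held *Xist*, the X-inactivation transcript, at 737 and 846 CPM (reads per 1000000 reads on genes). It was near 0 elsewhere, at 0.769 and 0.988 CPM in *Ikzf3* +/+ and, for homozygous carriers, at 1.96 and 1.24 CPM. Genotype and *Xist* status therefore cannot be told apart in any comparison with *Ikzf3* +/N159S cells.

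A naive CD4 T cell has left the thymus but has not met its antigen. It circulates between blood, spleen and lymph nodes by means of adhesion molecules and CCR7, leaves them through the sphingosine-1-phosphate receptor, and depends on interleukin 7 and contact with self peptides for survival. It divides rarely and is kept in this quiescent state by factors such as KLF2 and FOXO1, while TCF1 and LEF1, encoded by *Tcf7* and *Lef1*, maintain T lineage identity.

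Replicate 1 held 11696461 reads on genes and replicate 2 held 15189837, so that 1 read was worth 0.0855 and 0.0658 CPM. Of the 25239 genes listed, 10857 (43%) reached 1 CPM in both libraries, and 7033 (27.9%) had no read in either. Reads on genes were 56.4% and 56.6% of all entries counted. Replicate 1 had at least 1 read on 16873 genes and replicate 2, with more reads, on 15888.

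The naive markers were abundant in both libraries. All 11 genes of the naive list were above 10 CPM. *Tcf7* stood at 1696 and 1667 CPM, *Il7r*, which encodes CD127, at 1283 and 1191 CPM, *Lef1* at 582 and 468 CPM, and *Ccr7* at 414 and 397 CPM. *Lef1* had the widest gap between the replicates among these 4, and was higher in replicate 1. In the mm10 annotation *Il7r* lies on chromosome 15 (9505788 to 9530176), *Tcf7* and *Ccr7* on chromosome 11 (52252371 to 52283014 and 99144196 to 99155077), and *Lef1* on chromosome 3 (131110471 to 131224356). *Cd4* was at 887 and 973 CPM. The gate took CD44- cells, and *Cd44* transcript was present at 32.2 and 19.8 CPM, higher in replicate 1. Further naive genes were *Satb1*, a chromatin organiser (1179.8 and 1008 CPM), *Igfbp4* (1018 and 806 CPM), *Klf2* (433 and 435 CPM), *S1pr1*, the receptor for exit from lymphoid tissue (418 and 389 CPM), *Foxp1* (399.8 and 329.6 CPM) and *Dapl1* (61.3 and 59.1 CPM). The markers of the label were therefore present, though *Il7r*, like *Cd4*, encodes a protein that the sort selected. The constant segments of the T cell receptor chains, *Trac*, *Trbc1* and *Trbc2*, were not analysed here.

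Levels of different genes were compared per length, in TPM (reads per exon length, scaled to a sum of 1000000) over the exons of the mm10 annotation. *Eef1a1*, the elongation factor that brings transfer RNA to the ribosome, was at 18694 and 17350.0 TPM, and also had the most reads of any gene (12471 and 11341 CPM). *Rplp1* followed at 13605 and 13639 TPM, *Rps3a1* at 9471 and 9176 TPM, and *Rplp0* at 8069 and 8349 TPM. Cytosolic ribosomal proteins made up 11 of the 20 highest genes per length, *Rps15*, *Rpl8*, *Rpl19*, *Rps16*, *Rps4x*, *Rpl4* and *Rps23* among them. Besides ribosomes, the 20 held *B2m*, the light chain of class I molecules (7701 and 7554 TPM), *H2-K1*, a class I heavy chain (4532 and 5061 TPM), *Tmsb4x* and *Tmsb10*, which bind actin monomers, *Tpt1*, *Eef2*, the chaperone *Hsp90ab1* and *Junb*, a subunit of the AP-1 factor (4982 and 4997 TPM). The replicates lay within 1.5-fold of each other for 19 of the 20, the exception being *Hsp90ab1* at 3306 and 5399 TPM.

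**Figure D1:**
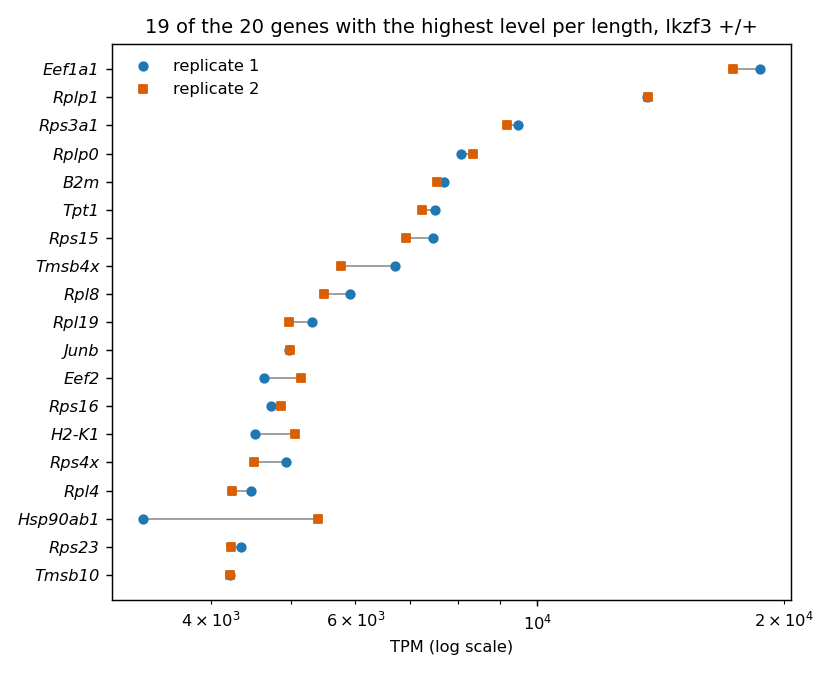
TPM (log axis) of 19 of the 20 genes with the highest mean level per length in *Ikzf3* +/+ cells. Each gene has 1 point per replicate joined by a line, and the widest gap is that of *Hsp90ab1*, at 3306 TPM in replicate 1 and 5399 TPM in replicate 2.

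By reads rather than per length, long transcripts entered the top 20, and 10 genes were shared with the list per length. *Macf1*, which links actin and microtubules, had 2918 and 3622 CPM but only 347 and 439.9 TPM. *Ptprc*, which encodes CD45, had 2862 and 2746 CPM and *Myh9*, a non-muscle myosin, 2481 and 2429.7 CPM. The remaining genes of the 20 that were not shared were *Ddx5*, an RNA helicase (4527 and 4351 CPM), *Actb*, *Hspa8*, *Arhgap45* and *Arhgef1*, which act on small GTPases, and *Rpsa* and *Rpl5*. Within these 20, *Actb* (3815 and 2105 CPM) and *Hsp90ab1* (2653 and 4246 CPM) were the genes past 1.5-fold between replicates, in opposite directions. The 10 genes with the most reads took 4.54% of the reads, and the top 100 took 18.2%. Genes of ribosomal proteins took 8.83% and 8.42% of the reads, elongation factors 1.85% and 1.76%, actin and its partners 2.19% and 1.92%, and replication-dependent histones, whose transcripts mostly lack poly(A), 0.0220% and 0.0244%. Long non-coding genes took 0.624% and 0.651%, led by *Malat1* (1509.6 and 1875 CPM), *Gas5* (323 and 336 CPM) and *Neat1* (284 and 299 CPM).

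The sequence before the gene start differed with level. In RefSeq windows of the 250 bases before the most upstream start, matched to 18651 genes, the median number of CG dinucleotides was 2 in genes with no read, 5 in genes read but under 1 CPM, 12 from 1 to 10 CPM, 16 from 10 to 100 CPM and 19 at 100 CPM or more, against 9 in all windows. The letters CCGGAAG, a core bound by ETS factors, were on either strand of 2.38% of windows without a read and 15.7% of those at 100 CPM or more, against 9.01% of all windows. The letters TATAAA, on either strand, went the other way, with 22.2% and 6.18% against 12.1% of all. CCGGAAG was most frequent and TATAAA least frequent from 10 to 100 CPM, at 17.4% and 5.71%. CCGGAAG holds a CG, and TATAAA holds only A and T. The median GC of the windows was 46.8% without a read and 62.4% at 100 CPM or more. Its part in these shares was not tested. The listed transcription factors and surface receptors that reached 1 CPM differed in CG count. Their medians were 18 CG over 81 factor windows and 5 CG over 81 receptor windows. For the listed genes that did not, the medians were 10 CG over 19 factor windows and 3 CG over 23 receptor windows. Factors were thus above receptors at either level. A match of letters is a description of the window and not a binding site.

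**Figure D2:**
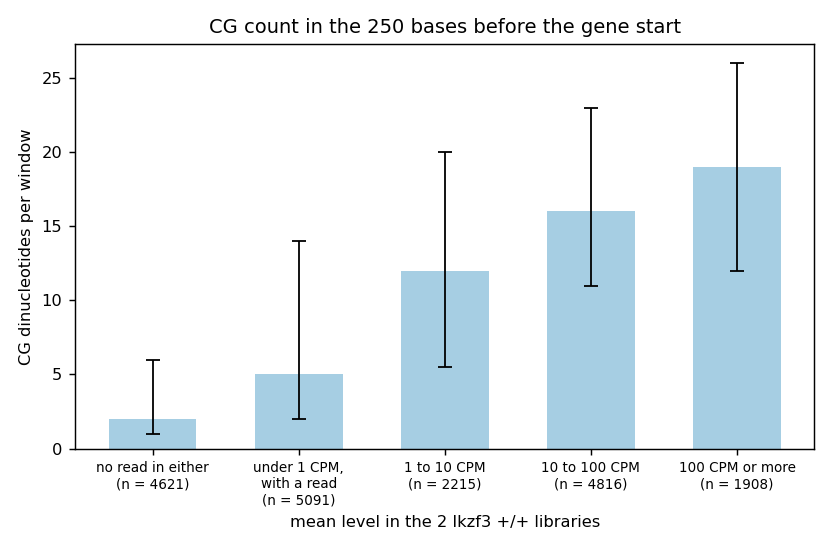
Bars give the median number of CG dinucleotides in the 250 bases before the gene start, by mean CPM in the *Ikzf3* +/+ libraries, and lines span the quartiles over genes. The median was 2 in genes without a read and 19 in genes at 100 CPM or more, and the quartile ranges of neighbouring levels overlap.

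The windows below show this range in genes of these cells, chosen after the values were seen among windows that overlap no annotated exon. They are GRCm38.p6 sequences from RefSeq, read 5′ to 3′ along the gene, with each CG in capitals. *Eef1a1* is the most abundant gene, *Junb* and *Ikzf1* are the leading AP-1 and Ikaros family genes, *Cd3d* and *Lck* are T cell genes of the receptor and its signalling, and *Rag2* is a thymocyte gene with no read here.
Eef1a1 (chr9:78481725-78481974, minus strand, 18 CG): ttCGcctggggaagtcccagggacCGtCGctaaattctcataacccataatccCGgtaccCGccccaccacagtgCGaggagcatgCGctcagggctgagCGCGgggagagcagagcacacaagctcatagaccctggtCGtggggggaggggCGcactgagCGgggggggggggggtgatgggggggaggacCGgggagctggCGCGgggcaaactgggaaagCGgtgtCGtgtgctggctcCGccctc
Junb (chr8:84978749-84978998, minus strand, 20 CG): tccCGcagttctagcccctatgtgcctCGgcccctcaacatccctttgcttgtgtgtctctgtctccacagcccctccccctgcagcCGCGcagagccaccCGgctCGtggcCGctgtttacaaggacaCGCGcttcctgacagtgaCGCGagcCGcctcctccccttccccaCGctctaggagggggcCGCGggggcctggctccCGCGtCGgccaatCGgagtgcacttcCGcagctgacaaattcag
Ikzf1 (chr11:11685675-11685924, plus strand, 44 CG): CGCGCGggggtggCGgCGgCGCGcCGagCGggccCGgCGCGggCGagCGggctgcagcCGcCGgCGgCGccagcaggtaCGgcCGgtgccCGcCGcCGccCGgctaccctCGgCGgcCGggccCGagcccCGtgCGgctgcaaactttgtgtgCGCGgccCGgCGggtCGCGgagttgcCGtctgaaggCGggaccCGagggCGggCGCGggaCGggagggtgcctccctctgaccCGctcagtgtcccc
Cd3d (chr9:44981536-44981785, plus strand, 0 CG): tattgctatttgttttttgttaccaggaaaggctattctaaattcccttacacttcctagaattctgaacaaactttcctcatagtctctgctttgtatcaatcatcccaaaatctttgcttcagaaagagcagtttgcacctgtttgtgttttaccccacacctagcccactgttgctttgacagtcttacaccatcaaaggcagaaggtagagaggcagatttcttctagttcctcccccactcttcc
Lck (chr4:129573642-129573891, minus strand, 1 CG): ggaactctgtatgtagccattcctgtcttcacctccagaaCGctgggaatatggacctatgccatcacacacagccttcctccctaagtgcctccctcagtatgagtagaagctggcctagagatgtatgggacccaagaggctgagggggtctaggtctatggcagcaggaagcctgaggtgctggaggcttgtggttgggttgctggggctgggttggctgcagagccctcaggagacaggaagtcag
Rag2 (chr2:101624462-101624711, plus strand, 3 CG): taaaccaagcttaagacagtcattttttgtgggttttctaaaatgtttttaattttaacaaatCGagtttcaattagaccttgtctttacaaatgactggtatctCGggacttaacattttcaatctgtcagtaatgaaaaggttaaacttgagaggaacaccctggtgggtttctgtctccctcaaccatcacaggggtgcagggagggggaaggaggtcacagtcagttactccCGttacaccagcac
*Cd3d* and *Lck* had few CG and were nevertheless among the high genes, at 755 and 716 TPM for *Cd3d* and 1069.6 and 1089 TPM for *Lck*.

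Genes of the T cell receptor complex and its proximal signalling were expressed without exception among the 33 held in the files. All 33 were above 10 CPM, against 8134 of all 25239 genes at 10 CPM or more in both libraries. All 33 agreed within 1.5-fold. Among the surface members, *Cd4* (822 and 920.3 TPM), *Thy1* (762 and 746 TPM), *Cd3d*, *Cd2* (689 and 621 TPM) and *Ptprc* (584 and 572 TPM) stood highest per length, and *Cd28*, the costimulatory receptor, stood lowest (173 and 160.4 TPM). Inside the cell the kinase *Lck* led, and the adaptor *Lat* (998 and 869.8 TPM), the phosphatase *Ptpn6* (538 and 616 TPM) and the adaptor *Grap2* (465 and 549 TPM) were also among the highest. *Zap70*, the kinase that docks on the CD3 chains, was at 353 and 359.6 TPM.

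Of 131 listed transcription factors, 107 reached 1 CPM in both libraries. Among the signal-dependent genes those of AP-1 stood highest, and *Tcf7*, given below with its own role, lay between *Junb* and *Fos*. *Junb* was at 4982 and 4997 TPM, *Fos* at 2237 and 2257 TPM, *Jund* at 1278 and 1597 TPM and *Jun* at 1132 and 1484 TPM. *Nr4a1*, a nuclear receptor induced by T cell receptor signals (749 and 782 TPM), and *Fosb* (637 and 688 TPM) came next, and *Mycn* alone of the 47 genes of this role had no read. *Jun*, *Jund* and *Fosb* were higher in replicate 2, by less than 1.5-fold.

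Genes of T lineage identity were led by *Tcf7* (2414 and 2422 TPM) and *Ets1* (1037 and 837 TPM), and 21 of 22 reached 1 CPM. *Bcl11b*, which holds T cell commitment, was at 245 and 225 TPM, *Elf1* at 222 and 246 TPM, *Lef1* at 248 and 203 TPM and *Satb1* at 232 and 202 TPM. *Zbtb7b*, which directs thymocytes to the CD4 fate, was at 181 and 199 TPM, and *Tox2* stayed under 1 CPM. *Runx3*, the counterpart of *Zbtb7b* in CD8 cells, was at 59.2 and 107 TPM, higher in replicate 2. All 15 factors of the quiescent state were above 10 CPM, with *Klf2* (875 and 899 TPM), *Klf6* (478 and 542 TPM), *Tsc22d3* (554 and 465 TPM), *Klf13* (249.8 and 224 TPM), *Elf4* (162 and 181 TPM) and *Foxo1* (178 and 158.6 TPM) highest. *Id2* and *Id3*, inhibitors of E proteins, were at 108 and 114 TPM and at 61.0 and 57.1 TPM, while *Id1* was at 4.41 and 4.11 TPM.

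The Ikaros family was headed by *Ikzf1*, and the gene edited in the carrier mice, *Ikzf3* (chromosome 11, 98464902 to 98546031), came next. *Ikzf1* was at 686 and 636 TPM, *Ikzf3* at 66.8 and 65.9 TPM, *Ikzf5* at 39.7 and 37.6 TPM, *Ikzf4* at 8.74 and 6.24 TPM and *Ikzf2*, which encodes Helios, at 4.76 and 4.17 TPM. The ranges of the libraries did not overlap between any neighbours in this order. As CPM, the 2 values of *Ikzf3* were 156 and 151 at baseline, 169 and 156 with 1 mutant allele, and 196 and 201 with both alleles mutant. The homozygous libraries were the highest, but the difference did not pass the threshold (log2 fold change 0.36 ± 0.09 SE, FDR 0.0522 by edgeR's quasi-likelihood test).

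Factors that direct effector fates were low. Of 14 such genes, 10 reached 1 CPM and 4 did not, among them *Tbx21*, which directs Th1 cells (0.684 and 0.461 CPM), *Zbtb32* and *Sox5*. The highest per length were *Sox4* (34.5 and 26.1 TPM), *Hopx* (12.9 and 16.2 TPM), *Bcl6*, which directs follicular helper cells (12.4 and 14.6 TPM), *Foxp3*, which directs regulatory T cells (5.58 and 9.16 TPM), *Prdm1* and *Bhlhe40*. *Gata3*, needed by all CD4 T cells and raised in Th2 cells, was at 85.7 and 76.2 TPM. Of 25 factors of other lineages, 16 were under 1 CPM in both libraries, against 54.9% of all genes, and 6 had no read (*Gata2*, *Hoxa9*, *Myod1*, *Neurod1*, *Pdx1* and *Sox2*). The other 10 included *Klf1*, *Cebpa*, *Cebpe*, *Batf3*, *Zbtb46*, *Tal1*, *Meis1*, *Hnf4a* and *Pou5f1*, which act in blood lineages, liver or embryonic cells. Above 10 CPM were *Cebpb* (13.1 and 16.4 CPM), the B cell factor *Pax5* (14.1 and 20.3 CPM) and, in replicate 2, *Spib* (5.39 and 10.1 CPM).

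**Figure D3:**
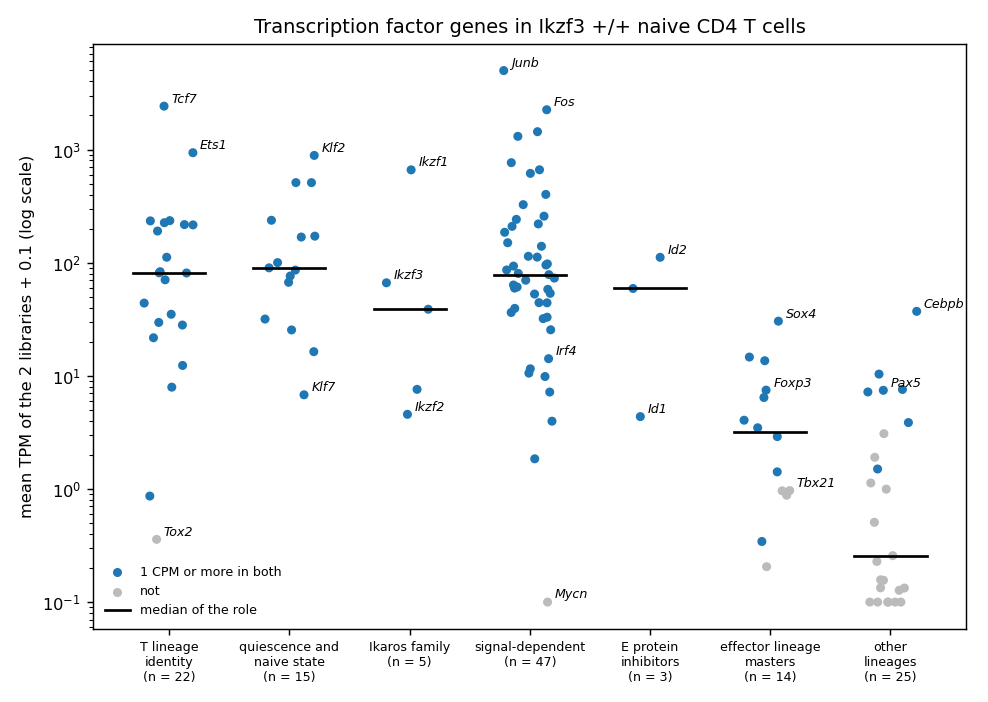
Mean TPM of the 2 *Ikzf3* +/+ libraries plus 0.1 (log axis) for 131 transcription factor genes by role, with lines at the median of each role. Blue genes reached 1 CPM in both libraries, which 107 did. The 25 factors of other lineages lie mostly at the bottom, and *Junb*, *Tcf7* and *Fos* lie at the top.

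Of 143 listed surface receptors, 116 reached 1 CPM in both libraries and 24 were under 1 CPM in both. Receptors for cytokines were led by *Il7r* (1028 and 974 TPM) and by *Il2rg*, the common gamma chain with which it pairs (1013 and 968 TPM). *Il27ra* (349 and 335 TPM), *Il21r* (259.6 and 277 TPM), *Tgfbr2* (234 and 249 TPM) and *Il4ra* (244 and 233 TPM) followed. The chains that make the interleukin 2 receptor responsive were low, with *Il2rb* at 21.0 and 29.1 TPM and *Il2ra* at 5.76 and 6.24 TPM. The 7 cytokine receptor genes under 1 CPM in both libraries were *Epor*, *Il23r*, *Csf2rb*, *Flt3*, *Kit*, *Il1r1* and *Il1r2*.

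For migration, *Ccr7* (782 and 766 TPM) was the highest chemokine receptor, ahead of *Cxcr4* (360.2 and 369 TPM), and *S1pr1* (513 and 487 TPM) and *S1pr4* (299.6 and 297 TPM) were the sphingosine-1-phosphate receptors present. *Gpr132* was at 379.6 and 419 TPM and *P2ry10* at 159.4 and 156 TPM. Of the 37 receptors of this role, 13 were under 1 CPM in both, among them the receptors *Ccr1*, *Ccr3*, *Ccr6*, *Ccr10*, *Cx3cr1* and *Xcr1*, the lipid receptors *S1pr3*, *S1pr5* and *Ltb4r1*, the scavenging receptors *Ackr2* and *Ackr3*, and *Cxcr2*, which had no read. Adhesion genes were led by *Cd53* (1540.0 and 1359 TPM), *Itgb7* (1204 and 1286 TPM), *Cd52* (1130.0 and 873 TPM), *Itgb2* (744 and 764 TPM) and *Ly6e* (711 and 665 TPM), and only *Itgax* and *Itga1* were under 1 CPM in both. Among costimulatory and inhibitory receptors *Cd40lg*, the helper signal to B cells (379 and 462 TPM), *Cd27* (322 and 314 TPM), *Vsir* (259 and 263 TPM), *Ly9* (221 and 229.8 TPM), *Cd96* (216 and 216 TPM) and *Cd69* (209.7 and 201 TPM) were highest. *Havcr2* and *Cd244a*, found on activated or cytotoxic cells, were under 1 CPM in both.

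Immediate early genes were abundant. Of 17 such genes, which rise within minutes of a stimulus, 15 were above 10 CPM, and the list summed to 10797 and 10905 CPM. After *Junb*, *Fos* and *Jun* came *Zfp36* (865 and 835 TPM) and *Ier2* (854 and 810.3 TPM), whereas *Ier3* (0.855 and 0.790 CPM) and *Atf3* (0.0855 and 0.198 CPM) were under 1 CPM. The 4 carrier libraries summed to between 9881 and 10759 CPM, so the level was shared by all 6 libraries. Time and temperature of the sort were not given in the labels, and their part in these levels was not tested.

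All 18 quiescence genes were above 10 CPM. *Dgka*, which removes diacylglycerol and restrains T cell receptor signals (1449 and 1604 TPM), *Txnip*, which limits glucose uptake (1095 and 999 TPM), *Btg1* (995 and 1046 TPM) and *Slfn2* (949.7 and 846 TPM) led, and *Tsc1* (26.2 and 32.1 TPM) and *Tsc2* (29.2 and 34.3 TPM) were lowest. Of 31 cell cycle genes, 26 reached 1 CPM, and *Ccna2*, *Cdk1*, *Bub1* and *Ccnb1*, which drive or guard mitosis, were under 1 CPM in both. *Pcna* (521 and 506 TPM), *Ccnd2* (217 and 183 TPM) and the licensing factor *Mcm4* (119.9 and 100.5 TPM) were among the highest, and the proliferation marker *Mki67* was at 3.40 and 4.09 TPM. *Ccnd2* exceeded its relatives *Ccnd3* (83.5 and 73.7 TPM) and *Ccnd1* (0.950 and 1.01 TPM), and *Cdk4* (94.3 and 88.3 TPM) exceeded *Cdk6* (7.33 and 7.88 TPM). *Mcl1* (1026 and 1130.5 TPM) was the highest survival gene and exceeded *Bcl2* (103 and 96.1 TPM). All 22 interferon-stimulated genes were detected above 1 CPM, from *Ifi27l2a* (469 and 491 TPM) down to *Ifi44* (1.51 and 1.11 TPM). Among transporters *Slc38a2* (251 and 250.3 TPM) and *Slc1a5* (229 and 256 TPM), which carry neutral amino acids, were highest, and the glucose transporters *Slc2a1* and *Slc2a3* were at 47.3 and 46.8 TPM and at 25.4 and 30.1 TPM.

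The 14 lists of genes of other cells and states held 226 genes in the files, of which 116 were under 1 CPM in both libraries, 37 had no read and 46 reached 10 CPM in at least 1 library. As a whole they were near the background, since 42.0% reached 1 CPM in both libraries against 43% of all genes, and 54.9% of all genes were under 1 CPM in both. A gene with no read could still have been present at up to 0.256 CPM in replicate 1 and 0.198 CPM in replicate 2, the level of 3 reads, and this limit covers counting error only. In bulk RNA a few cells with a high level and many cells with a low level cannot be told apart.

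Several lists were close to silent. Of 11 genes of mast cells, basophils and eosinophils none reached 1 CPM in both libraries, and 10 were under 1 CPM in both, the exception being *Cpa3* at 1.62 and 0.922 CPM. Of 24 genes of liver, brain, muscle, skin and other organs 22 were under 1 CPM and 8 had no read, while *Syn1* was at 1.80 and 2.17 CPM. Of 14 erythroid genes 10 were under 1 CPM, and the 6 globin genes listed had no read, although reads on near-identical globin copies may have been discarded as not unique. Of 17 stromal and endothelial genes 14 were under 1 CPM, and the member above 10 CPM was *Pecam1*, the adhesion molecule CD31, which naive T cells also carry, at 233 and 199 CPM. Of 8 platelet genes 6 were under 1 CPM and 4 had no read, with *Gp1ba* at 8.81 and 6.71 CPM, and of 11 dendritic cell genes 9 were under 1 CPM, with *Bst2*, also an interferon-stimulated gene, at 45.4 and 43.6 CPM. The myeloid list was not close to silent. Of its 30 genes 16 reached 1 CPM in both (53.3%, against 43% of all genes) and 10 were under 1 CPM in both. The levels were low, since *Cd68* alone reached 10 CPM (26.9 and 25.7 CPM), with *Lyz2* at 3.25 and 2.77 CPM.

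B cell genes were present at a low level. Of 22, 21 reached 1 CPM in both libraries and 16 reached 10 CPM in at least 1, led by *Cd74*, the invariant chain of class II molecules, at 67.4 and 96.4 CPM. *H2-Eb1*, *H2-Ab1* and *H2-Aa* lay between 19.2 and 37.9 CPM. *Cd79a*, *Cd22*, *Cd72*, *Ms4a1*, *Pou2af1*, *Cr2*, *Fcer2a*, *Cd79b* and *Bank1* reached 10 CPM in at least 1 library as well. The 22 genes summed to 282 CPM in replicate 1 and 420 CPM in replicate 2, against 728 and 1192 CPM for heterozygous and 283 and 199 CPM for homozygous carriers. The part of B cell RNA in any difference between these libraries was not tested.

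Genes of other T cells were also detected. All 13 regulatory T cell genes reached 1 CPM, with *Izumo1r*, the folate receptor FR4, at 79.5 and 87.2 CPM, *Tnfrsf18* at 36.6 and 30.5 CPM, *Capg* at 29.8 and 27.8 CPM, *Ctla4* at 18.6 and 25.1 CPM, *Gpr83* at 20.3 and 12.2 CPM, *Nrp1* at 8.64 and 11.98 CPM and *Foxp3* at 6.84 and 11.0 CPM. Of 30 effector and memory genes 15 reached 1 CPM, 14 were under it in both and 7 reached 10 CPM in at least 1 library. Those 7 were *Id2*, *Icos*, *Tnf*, *Lgals1*, *Il2rb*, *Cd44* and *Cish*, between 19.8 and 73.1 CPM. The cytokine genes *Il17a* and *Il5* had no read, and *Ifng*, *Il2*, *Il4*, *Il10*, *Il13*, *Il17f*, *Il21*, *Il22* and *Csf2* were under 1 CPM in both. Of 23 genes of CD8 and NK cells 11 were under 1 CPM, and *Ctsw* (44.1 and 44.1 CPM), *Prf1* (22.1 and 35.9 CPM), *Klrd1* (21.2 and 13.7 CPM), *Cd8b1* (20.01 and 12.9 CPM) and *Fasl* (11.3 and 13.2 CPM) reached 10 CPM. *Cd8a*, the partner of *Cd8b1*, was at 1.80 and 4.54 CPM. Among thymocyte genes *Rag2* and *Ptcra* had no read, *Dntt*, which adds nucleotides during receptor rearrangement, was at 8.72 and 7.77 CPM, and *Themis*, *Cd1d1*, *Tox*, *Sox4* and *Cd8b1* reached 10 CPM. Of 7 plasma cell genes *Xbp1* (41.8 and 43.1 CPM) and *Prdm1* (10.4 and 8.29 CPM) reached 10 CPM, and none of 8 genes of gamma delta and innate-like T cells did.

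**Figure D4:**
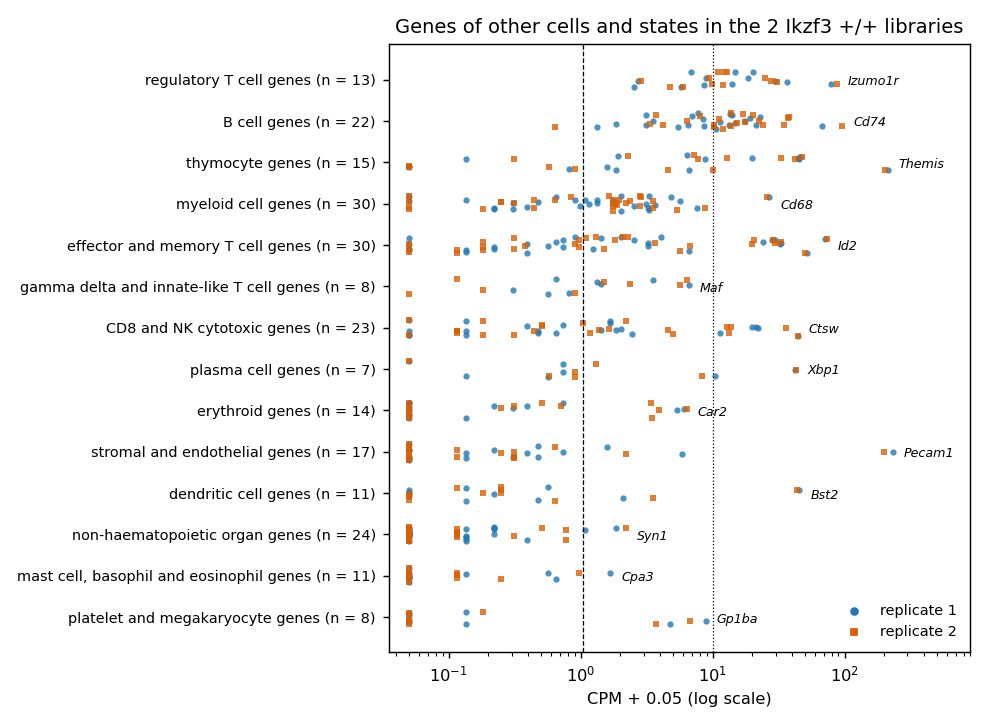
CPM plus 0.05 (log axis) of each gene of 14 lists of other cells and states, with 1 point per replicate and the highest gene of each list named. Dashed and dotted lines stand at 1 and 10 CPM, and 116 of the 226 genes lie under 1 CPM in both libraries.

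The replicates agreed closely. Over the 10857 genes at 1 CPM or more in both, 94.6% were within 1.5-fold and 98.9% within 2-fold, and Pearson's r of log2(CPM + 1) was 0.993, a description across genes, which are not independent. Agreement rose with level, from 75.1% within 1.5-fold at a mean of 1 to 3 CPM to 97.2% from 10 to 30 CPM and 99.4% at 100 CPM or more. The biological coefficient of variation was 9.42% for this pair, 10.8% for *Ikzf3* +/N159S and 9.69% for *Ikzf3* N159S/N159S. Past 2-fold were 124 genes (1.14%), of which 69 were higher in replicate 2, and past 1.5-fold were 5.38%.

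Among 8885 genes with at least 100 reads in 1 of these libraries, the largest excess in replicate 1 was that of *Slc15a2*, a peptide transporter, at 74.8 and 9.28 CPM, a difference of 8.06-fold. *G530011O06Rik* (8.81 and 1.25 CPM), *Mid1*, a ubiquitin ligase (82.3 and 18.9 CPM), *Kcnq1ot1*, an imprinted antisense RNA (41.1 and 11.9 CPM), and *Gm13420* (11.5 and 4.48 CPM) followed. The carriers also varied for these genes. In heterozygous carriers *Slc15a2* was at 43.2 and 63.4 CPM and *Mid1* at 82.8 and 60.4 CPM. In homozygous carriers *Slc15a2* was at 22.3 and 0.437 CPM and *Mid1* at 40.7 and 6.34 CPM. Whether the counting used strand was not given, so reads of *Kcnq1ot1* cannot be told from those of *Kcnq1*, which it overlaps. *G530011O06Rik* lies within *Mid1* on the opposite strand, so their differences may not be independent.

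The largest excess in replicate 2 lay in heat shock genes. *Hspa1b* was at 17.4 and 127 CPM, a difference of 7.28-fold, *Hspa1a* at 4.27 and 27.6 CPM and *Hsph1* at 350.4 and 857 CPM. The reads of *Hspa1a* and *Hspa1b*, which are near-identical copies, may be split or lost between them. *Lbp* (9.92 and 24.2 CPM) and *Vwce* (4.62 and 10.9 CPM) completed the 5. Of 22 heat shock genes taken by symbol after these values were seen, 20 reached 1 CPM, of which 16 were higher in replicate 2 and 7 were past 1.5-fold higher, with a median ratio of 1.44. The class took 0.986% and 1.41% of the reads, against 0.798% to 1.13% in the 4 carrier libraries, so replicate 2 was the highest of the 6. For 13 of the 20 genes replicate 2 was the highest of the 6 libraries, while *Hspa1b* was higher in an *Ikzf3* N159S/N159S library (277.5 and 76.2 CPM).

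**Figure D5:**
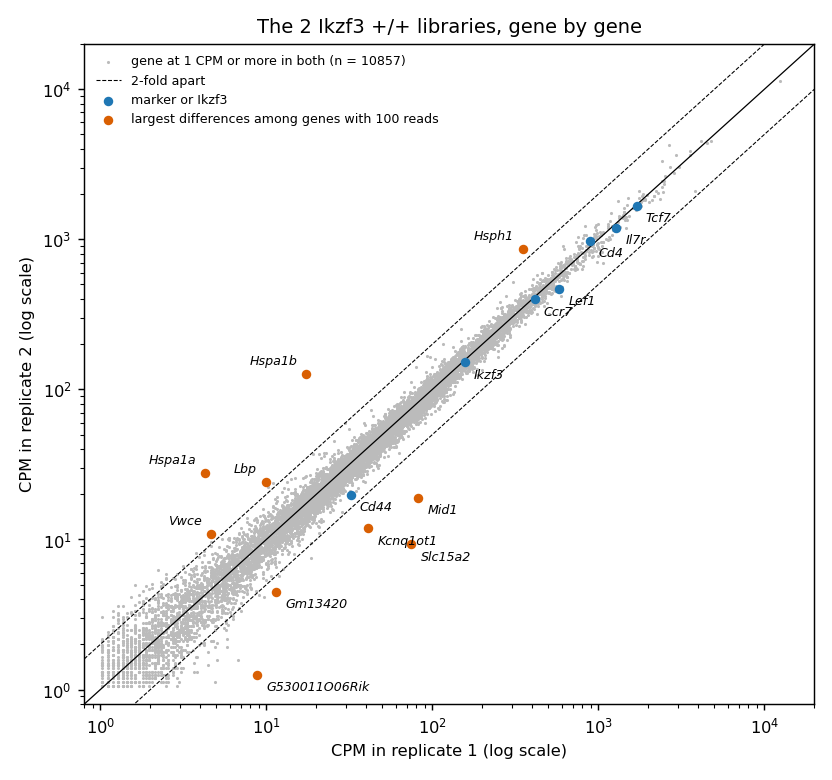
CPM of each gene at 1 CPM or more in both *Ikzf3* +/+ libraries, replicate 1 against replicate 2 (log axes), with lines at equality and at 2-fold. Markers (blue) lie near equality except *Cd44*, which was higher in replicate 1. The orange genes are the 10 largest differences among genes with at least 100 reads, such as *Slc15a2* (74.8 and 9.28 CPM) and *Hspa1b* (17.4 and 127 CPM).

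The study asked which genes the N159S allele alters, and the baseline was set against the carriers only for its own genes. Of 12117 genes tested, 631 (5.21%) were DEGs at an FDR under 0.05 in *Ikzf3* N159S/N159S cells (376 higher, 3.1%, and 255 lower, 2.1%) and 212 (1.75%) in *Ikzf3* +/N159S cells (141 higher, 1.16%, and 71 lower, 0.586%). Both comparisons share the *Ikzf3* +/+ libraries. The first count was 316 without *Ikzf3* +/+ replicate 1, 257 without replicate 2, and 354 and 326 without replicates 1 and 2 of *Ikzf3* N159S/N159S. The second was 107 and 83 without replicates 1 and 2 of *Ikzf3* +/+, and 162 and 113 without those of *Ikzf3* +/N159S. The excess of higher genes in *Ikzf3* +/N159S cells was not stable, with 42 higher and 65 lower without *Ikzf3* +/+ replicate 1 and 153 higher and 137 lower by DESeq2.

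The most abundant genes did not pass the threshold in either comparison. By edgeR's quasi-likelihood test 0 of the 20 genes with the most reads were DEGs. The shares of all genes tested were 5.21% in *Ikzf3* N159S/N159S and 1.75% in *Ikzf3* +/N159S cells. Whether 20 genes depart from these shares was not tested. Before adjustment 3 and 5 of the 20 were at p under 0.05 in the same order, and DESeq2 called 1 and 2. Ribosomal protein genes took 9.92% to 10.7% of the reads in the 4 carrier libraries, above both *Ikzf3* +/+ libraries. Over 82 such genes tested the median log2 fold change was 0.26 and 0.22 in the same order, against 0.00 and 0.01 over all genes tested. Of these 82, 4 rose by edgeR in *Ikzf3* N159S/N159S cells, against 3.1% of all genes. DESeq2 called 23 of them, against 579 of 12710 genes. In *Ikzf3* +/N159S cells 0 passed by edgeR, against 1.75% of all genes, and DESeq2 called 7, against 290 of 11892 genes. By edgeR 35 had an unadjusted p under 0.05 in *Ikzf3* +/N159S cells, and the share of all genes at that p is not given here.

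Among the 11 naive markers, 3 fell and 1 rose in *Ikzf3* N159S/N159S cells (36.4%, against 5.21% of all genes tested). Of these, *Dapl1* fell by 1.02 on the log2 scale (FDR 0.0138) and *Lef1* by 0.60 (FDR 0.0412), and *Klf2* rose by 0.54 (FDR 0.0208). These 3 calls were lost without either *Ikzf3* +/+ library, with FDR of 0.0620 and 0.0653 for *Dapl1*, 0.253 and 0.0527 for *Lef1* and 0.124 and 0.104 for *Klf2*. They were also lost without a library of the carriers, replicate 2 for *Dapl1* (FDR 0.0732) and *Klf2* (FDR 0.144) and replicate 1 for *Lef1* (FDR 0.262). In *Ikzf3* +/N159S cells *Il7r* (893 and 922 CPM) fell by 0.49 (FDR 0.0327). That call was lost without either *Ikzf3* +/+ library (FDR 0.157 and 0.111) and without replicate 1 or 2 of *Ikzf3* +/N159S (FDR 0.0981 and 0.0947). *Tcf7* and *Ccr7* had log2 fold changes between -0.08 and 0.04 in these comparisons, and *Cd4* -0.15 and -0.25, with none called.

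Of the 33 T cell receptor genes 1, *Trat1*, fell in *Ikzf3* +/N159S cells (FDR 0.0335), which is 3.03% against 1.75% of all genes tested. That call was lost without *Ikzf3* +/+ replicate 2 or either heterozygous library. In *Ikzf3* N159S/N159S cells 5 of the 33 fell (15.2%, against 5.21% of all genes tested). *Thy1* fell by 1.22 (SE 0.12, FDR 0.000143), *Cd5*, which dampens receptor signals, by 0.86 (FDR 0.00123) and *Cd6* by 0.85 (FDR 0.00150), and these 3 calls were kept under all alternatives. *Trat1* fell by 0.64 (FDR 0.00609) and *Plcg1* by 0.57 (FDR 0.0271), and both were lost without replicate 2 of *Ikzf3* +/+ or of *Ikzf3* N159S/N159S, with FDR of up to 0.0736 and 0.231. The median log2 fold change of the list was -0.15, against 0.00 over all genes.

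Of 131 transcription factors, 116 of them tested, 6 rose and 6 fell in *Ikzf3* N159S/N159S cells (10.3%, against 5.21% of all genes tested). *Irf4*, a factor induced by receptor signals, was at 3.46 and 3.35 CPM against 16.5 and 20.01 CPM, and fell by 2.43 (SE 0.22, FDR 0.000120). *Myb* fell by 1.02 (FDR 0.00289), and both calls were kept under all alternatives. *Bhlhe40* and *Tcf4*, which rose by 1.19 and 1.02, and *Sox4*, which fell by 0.92, completed the 5 with the largest change. Each of these calls was lost without *Ikzf3* +/+ replicate 1 or 1 of the homozygous libraries. That of *Tcf4* was also lost without *Ikzf3* +/+ replicate 2. In *Ikzf3* +/N159S cells 5 rose and 1 fell (5.17%, against 1.75% of all genes tested). Among the risers *Maf*, *Spib*, *Hopx* and *Ikzf2* each lost the call without at least 1 library. For *Hopx* and *Ikzf2* these were both *Ikzf3* +/+ libraries and heterozygous replicate 1 (FDR of up to 0.187 and 0.168), and for *Spib* replicate 1 of *Ikzf3* +/+ and replicate 2 of the carriers (up to 0.197). *Maf* rose by 1.37 (FDR 0.00677), from 6.58 and 5.66 CPM to 17.4 and 14.996 CPM, and its FDR was 0.0520 without *Ikzf3* +/+ replicate 2.

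Of 143 receptors, 125 of them tested, 16 fell and 8 rose in *Ikzf3* N159S/N159S cells (19.2%, against 5.21% of all genes tested). In *Ikzf3* +/N159S cells 6 fell and 5 rose (8.8%, against 1.75%). In *Ikzf3* N159S/N159S cells *Cd8b1* fell by 2.65 (FDR 0.000380), *Slamf1*, a costimulatory receptor, by 1.82 (FDR 0.000130), *Il2rb* by 1.52 (FDR 0.000396) and *Ly6c1* by 1.29 (FDR 0.00119), all kept under each alternative. *Ly6c1*, a surface protein of part of the naive pool, also fell by 1.24 in *Ikzf3* +/N159S cells (FDR 0.00546), from 88.7 and 75.6 CPM to 33.8 and 38.1 CPM. Among the state genes *Dusp2*, a phosphatase of MAP kinases, fell by 0.78 and 0.89 (FDR 0.00412 and 0.00605) and *Oas1a*, an interferon-stimulated gene, rose by 2.03 and 1.78 (FDR 8.09e-05 and 0.000678) in *Ikzf3* N159S/N159S and *Ikzf3* +/N159S cells. Of the 22 B cell genes 6 fell in *Ikzf3* N159S/N159S cells (27.3%, against 5.21% of all genes tested). *Fcer2a*, which encodes CD23, was at 0.346 and 0.583 CPM there against 7.69 and 13.8 CPM (FDR 0.000316). In *Ikzf3* +/N159S cells 11 rose and 1, *Fcer2a*, fell (54.5%, against 1.75%). The heterozygous call of *Fcer2a* (FDR 0.00818) was lost without *Ikzf3* +/+ replicate 2. *Cd74* was at 192 and 334 CPM in *Ikzf3* +/N159S cells (log2 fold change 1.63, FDR 0.00971), a call lost without *Ikzf3* +/+ replicate 1. *Dntt* fell by 4.38 (FDR 0.000399) in *Ikzf3* N159S/N159S cells, to 0.231 and 0.583 CPM.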

How the data were processed

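Poly(A) RNA of sorted splenic T cells was sequenced on a HiSeqX in 6 libraries, 2 per genotype. According to the submitters' processing notes and the methods of the study, reads were trimmed with Trimmomatic 0.38.1, mapped to mm10 with HISAT2 2.2.1 and counted on refGene genes with HTSeq 2.0.2. The authors deposited raw counts per gene, without normalization, and the strand setting of the counting was not given in the sources used here. Rows that name no gene (43.4% and 43.6% of the entries in *Ikzf3* +/+) were left out. CPM was taken over reads on genes. TPM used union-exon lengths of the GENCODE M21 annotation (GRCm38), matched by symbol for 24712 of 25239 genes, 338 of them through an older symbol; such lengths include rare isoforms and can lower TPM. Groups came from the labels. Comparisons used edgeR 4.0.16 in R 4.3.3 on all 6 libraries with genotype as the only term: filterByExpr (minimum count 10, total 15), TMM, the quasi-likelihood test and Benjamini-Hochberg adjustment over 12117 genes (FDR, threshold 0.05). In data simulated for the *Ikzf3* N159S/N159S comparison, 175 of 200 changed genes were recovered with 8 false calls. The fold change, read counts and spread set in those data are not given here. Recovery at the fold changes and levels of the calls named above was not tested. DESeq2 1.42.0, other scalings, no filter, a replicate block and leaving out each library were tried. Genes named were the 20 highest by CPM and per length, the highest 6 of each role and those under 1 CPM, list members at 10 CPM or more for other cells, up to 5 highest and 3 lowest for states, the 5 largest differences in each direction between replicates, and up to 5 DEGs a list. The members and lists were chosen with earlier results of these data known. Some genes that these rules name are not reported here. Windows before gene starts came from RefSeq (GRCm38.p6).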

Additional observations from a re-analysis of the deposited data

How the results depend on the processing

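Depth, with 1 read worth 0.0855 and 0.0658 CPM, limits statements on genes under 1 CPM, and 2 libraries per genotype limit the comparisons. The number of genes at 1 CPM or more was 11192 in replicate 1 alone, 11057 in replicate 2 alone and 11201 with a minimum of 10 reads in both. The share of the top 10 genes was 4.59% with TMM scaling, 4.57% and 4.65% with each library's own top 10, and 2.56% of all entries counted. Within 1.5-fold were 98.8% of genes with a mean of at least 10 CPM. With no filter on low counts, 1047 and 710 genes differed in *Ikzf3* N159S/N159S and *Ikzf3* +/N159S cells. Leaving out 1 library gave 257 to 354 and 83 to 162. DESeq2 gave 579 and 290, and its size factors in edgeR 632 and 212. Replicate numbers did not pair the samples (correlations of replicate differences -0.17, -0.22 and 0.24), and a replicate block gave 495 and 149. A crossed block, chosen after seeing the data, gave 1760 and 1385. Of the calls looked at gene by gene, 14 of 36 and 4 of 27 were kept under every alternative, no direction turned, and 22 and 23 were lost without 1 of the libraries. The cause of these shifts was not tested. Of the 20 highest genes per length, 16 stayed with the longest transcript as length.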
